A study of Mus musculus with 6 samples.

Results

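The 10 genes described here encode receptors and core proteins of mitophagy, the removal of mitochondria by autophagy, and were taken by name: Pink1, Bnip3, Bnip3l, Fundc1, Sqstm1, Optn, Ulk1, Map1lc3a, Map1lc3b and Gabarapl1. All 10 were found once each among 55416 deposited gene identifiers, and all 10 were among the 15269 genes with enough counts to be tested. RNA-seq was made from primary chondrocytes of mouse knee joints after transfection of a scrambled control siRNA (siNC, 3 libraries) or an siRNA against Pkm2, the muscle-type pyruvate kinase isoform (siPkm2, 3 libraries). The labels list the siNC cells as wild type and give no further treatment for either group. The labels give neonatal mice, whereas the supplementary methods give older mice. The genotype labels of siPkm2 replicates 2 and 3 read PKM3 knockdown and PKM4 knockdown, while the titles of all 3 read siPKM2, and the titles were followed. The labels do not say whether the 3 replicates of a group came from separate animals or cultures, so p-values measure only the spread between these libraries.

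In mitophagy, the kinase Pink1 gathers on damaged mitochondria and marks their outer membrane with phosphorylated ubiquitin. The cargo receptors Sqstm1 (p62) and Optn bind that ubiquitin at one end and proteins of the ATG8 family (Map1lc3a, Map1lc3b, Gabarapl1) on the growing autophagosome membrane at the other. Bnip3, Bnip3l (Nix) and Fundc1 sit in the outer mitochondrial membrane and bind ATG8 proteins directly, without ubiquitin, and the kinase Ulk1 starts autophagosome formation. The libraries measured RNA only, and neither protein nor autophagic flux can be read from them.

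In siPkm2 chondrocytes, RNA of the ubiquitin-binding receptors Sqstm1 and Optn, of the ATG8 gene Map1lc3b and of the initiating kinase Ulk1 was higher in every siPkm2 library than in any siNC library, by between 1.32-fold and 1.64-fold in mean CPM (counts scaled to a common library total with edgeR's TMM factors). Groups also did not overlap for Bnip3l, higher in siPkm2 by 1.17-fold, and for Map1lc3a, lower in siPkm2. Of all genes tested, 12.0% did not overlap with siPkm2 higher and 12.3% with siPkm2 lower. In TPM, which is scaled to transcript length, the groups overlapped for Ulk1, Bnip3l and Map1lc3a. Of the receptors that act without ubiquitin, Bnip3l had a higher CPM in all 3 pairs and Fundc1 a lower one, and Bnip3 was lower in 2 of 3 pairs. Pink1 differed by 0.04 on the log2 scale, and the ATG8 gene Map1lc3a lay opposite to Map1lc3b. Groups were compared by the quasi-likelihood test of edgeR, with p-values adjusted by the Benjamini-Hochberg method across every tested gene, and SE below is the standard error. None of the 10 passed an adjusted p of 0.05 in this edgeR test, where 0% of all genes did. At an unadjusted p under 0.05, 4 of the 10 stood in that test beside 17.6% of all genes, 3 in DESeq2's Wald test beside 10.5%, and 3 in limma on log2(TPM + 1) beside 16.7%. The DESeq2 share is over 27931 genes, many with low counts, and the other shares are over 15269, so they are not on a like footing. DESeq2 and limma also put 0 of the 10 past the adjusted threshold. With the replicate number as a block in the edgeR test, Sqstm1, Optn, Map1lc3b and Ulk1 rose, 4 of 10, and 0 fell, beside 12.3% of all genes tested that rose and 10.8% that fell (23.1% in all). These 4 calls were lost when pair 1 or pair 3 was left out, where 0% of all genes tested passed. They were kept without pair 2, where 39.1% of all genes tested passed. DESeq2 without the block called 5.12% of the genes with an adjusted p.

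Libraries with the same replicate number deviated together from their group means, with correlations across genes of 0.66, 0.76 and 0.65, so the blocked values are given beside the others. Total estimated counts lay between 22316996 and 25691029, and the lowest estimated count of any of the 10 genes in a library was 502. Pkm itself, whose PKM1 and PKM2 transcripts these gene counts do not separate, averaged 2252 CPM across siNC and 395 CPM across siPkm2 libraries, a log2 fold change of -2.51 (adjusted p = 0.0738) that became -2.53 (adjusted p = 0.00932, both by edgeR) with the block. Replicate 2 of both groups stood apart: the summed level of 11 chondrocyte markers was 11522 and 16096 CPM there and between 47624 and 56364 CPM in the other 4 libraries. Interferon-stimulated genes moved with both the group and the number, and their 10 markers summed to 58.4, 1864 and 85.2 CPM in siNC 1 to 3 and to 1139, 3470 and 917 CPM in siPkm2 1 to 3. The fitted change was positive for all 10 of them, and 4 rose with the block. Macrophage markers summed to between 6.17 and 30.2 CPM with Adgre1 and Ptprc at or near 0 in every library, endothelial markers to between 1.31 and 3.42 CPM, osteoblast markers to between 26.7 and 377 CPM in siNC and between 19.8 and 142 CPM in siPkm2, and synovial fibroblast markers to between 259 and 551 CPM in siNC and between 280 and 668 CPM in siPkm2. Within all 3 pairs the macrophage, endothelial and synovial fibroblast sums were higher and the osteoblast sum lower in siPkm2. Single genes weighed heavily in these sums. Cd14 was at 0.961, 14.9 and 1.23 CPM in siNC 1 to 3 and at 4.94, 23.5 and 3.24 CPM in siPkm2 1 to 3. Pdpn was at 72.2, 213 and 55.7 CPM in siNC 1 to 3 and at 163, 315 and 201 CPM in siPkm2 1 to 3. Without Cd14 the macrophage sum, and without Pdpn the synovial fibroblast sum, was not higher in every pair. With the block, Pdpn (log2 fold change 1.19) and Cd55 (0.71) of 5 synovial fibroblast markers, Cd14 (1.35) of 4 tested macrophage markers and Matn3 (0.86) of 11 chondrocyte markers rose, Ibsp (-1.45) of 4 tested osteoblast markers fell, and none of 2 tested endothelial markers passed by edgeR. These lists did not share a sign throughout: with the block 3 of the 5 synovial fibroblast and 3 of the 4 tested macrophage markers were positive. The negative ones were Thy1 (-0.92) and Pdgfra (-0.38) of the former and Lyz2 (-0.16) of the latter. The part of all these markers in the results below was not tested. Fewer cells of a type and less RNA per cell cannot be told apart in these bulk libraries.

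Of the ubiquitin-binding receptors, Sqstm1 had the largest fitted change among the 10 genes. Sqstm1 was at 305, 507 and 316 CPM in siNC 1 to 3 and at 654, 595 and 604 CPM in siPkm2 1 to 3. The siPkm2 libraries lay close together above all siNC libraries, and siNC 2 was nearest to them. The siNC mean was 376 ± 114 and the siPkm2 mean 618 ± 31.7 (SD, n = 3 each). Its log2 fold change was 0.72 (SE 0.24, adjusted p = 0.213), and 0.76 (SE 0.18, adjusted p = 0.0395) with the block, both by edgeR. Within pairs 1, 2 and 3 the log2 difference was 1.10, 0.23 and 0.94. The smallest difference fell in pair 2, whose siNC library had both the highest interferon sum and the lowest chondrocyte marker sum of its group. The part of either in this difference was not tested. Without pair 2 the blocked log2 fold change was 1.01, which took Sqstm1 past a fold of 2 (adjusted p = 0.000571 by edgeR). Sqstm1 lies on chromosome 11 from 50199366 to 50210827, minus strand (GRCm38, GENCODE M21, as for all gene positions here).

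Optn, the other ubiquitin-binding receptor, was lower in level, at 20.5 against 326 TPM in siNC, where TPM is an abundance scaled to transcript length and library total. Optn stood at 35.8, 32.8 and 28.9 CPM in siNC 1 to 3 and at 48.7, 38.4 and 41.2 CPM in siPkm2 1 to 3. The groups did not overlap, and the lowest siPkm2 library, replicate 2, stood just above the highest siNC library. Its fitted change on the log2 scale was 0.40 (SE 0.16, adjusted p = 0.263), and 0.39 (SE 0.10, adjusted p = 0.0398) with the block, both by edgeR. The gene lies on chromosome 2 from 5020642 to 5064051, minus strand.

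Among the ATG8 genes, whose products are anchored to the autophagosome membrane and bound by the receptors, only Map1lc3b of these 3 rose with the block. Map1lc3b was at 167, 143 and 189 CPM in siNC 1 to 3 and at 250, 214 and 277 CPM in siPkm2 1 to 3. Its 3 within-pair log2 differences were 0.58, 0.58 and 0.56, close to each other in all pairs, replicate 2 included. The fit gave a log2 fold change of 0.57 (SE 0.18, adjusted p = 0.189), and 0.57 (SE 0.08, adjusted p = 0.0142) with the block, both by edgeR. The gene lies on chromosome 8 from 121590361 to 121598760, plus strand.

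Map1lc3a, which encodes a close relative of the Map1lc3b protein, was at 67.1, 69.3 and 72.7 CPM in siNC 1 to 3 and at 58.5, 63.3 and 65.1 CPM in siPkm2 1 to 3. All siPkm2 libraries lay below all siNC libraries in CPM, though not in TPM, but the fitted log2 change of -0.16 (SE 0.11, adjusted p = 0.498 by edgeR) did not pass, nor did the blocked value of -0.16 (adjusted p = 0.163, both by edgeR). Gabarapl1, of the GABARAP branch of the family, was at 112, 175 and 100.05 CPM in siNC 1 to 3 and at 126, 174 and 141 CPM in siPkm2 1 to 3. Replicate 2 was the highest library of each group with a log2 difference of -0.01 within its pair, and the groups overlapped. For Gabarapl1 the fitted change was 0.19 (SE 0.25, adjusted p = 0.761), and 0.22 (adjusted p = 0.222) with the block, both by edgeR.

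The levels of the LC3 genes can also be given as a ratio, which restates the same values and is no separate support. In TPM the log2 difference within pairs 1 to 3 was 0.62, 0.54 and 0.53 for Map1lc3b. For Map1lc3a it was smaller, at -0.18, -0.21 and -0.26, so most of the change in the ratio came from Map1lc3b. Per length, in the deposited TPM, the ratio of Map1lc3a to Map1lc3b was 1.15, 1.395 and 1.13 in siNC 1 to 3 and 0.658, 0.833 and 0.657 in siPkm2 1 to 3. Map1lc3a was thus above Map1lc3b in every siNC library and below it in every siPkm2 library. The mean ratio was 1.23 ± 0.146 in siNC against 0.716 ± 0.101 in siPkm2 (SD, n = 3 each). The log2 difference was -0.78, with -0.81, -0.74 and -0.79 in pairs 1 to 3, and an exact permutation test, two-sided over 3 and 3 libraries, gave p = 0.1, which is its lowest possible value.

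**Figure D1:**
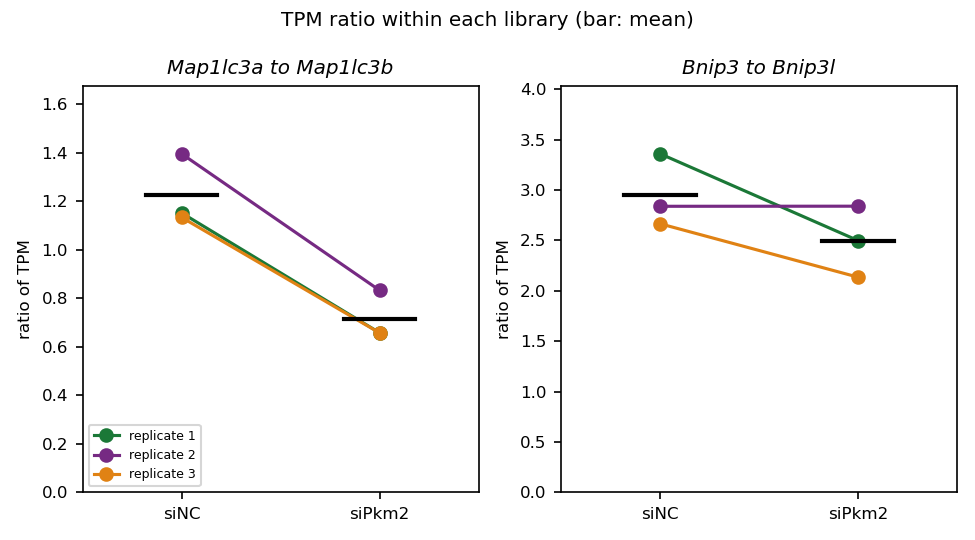
Ratio of TPM within each library for Map1lc3a to Map1lc3b (left) and Bnip3 to Bnip3l (right), with siNC and siPkm2 on the horizontal axis, points coloured and joined by replicate number, and black bars at the group mean. The LC3 ratio went from above 1 in the 3 siNC libraries to below 1 in the 3 siPkm2 libraries, while the Bnip3 ratio was 2.84 in replicate 2 of both groups.

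Ulk1 encodes the serine/threonine kinase at the head of autophagy, which AMPK activates and mTORC1 restrains. It was at 42.8, 67.2 and 57.3 CPM in siNC 1 to 3 and at 71.1, 97.0 and 85.7 CPM in siPkm2 1 to 3. Each siPkm2 library was above every siNC library, though siPkm2 1 exceeded siNC 2 by little. In both groups replicate 2 was the highest and replicate 1 the lowest. The fit gave 0.60 on the log2 scale (SE 0.21, adjusted p = 0.218), and 0.61 (SE 0.08, adjusted p = 0.0141) with the block, both by edgeR. In TPM the groups overlapped, with siNC from 15.7 to 27.2 and siPkm2 from 25.7 to 36.8. Ulk1 lies on chromosome 5 from 110784488 to 110810097, minus strand.

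The receptors of the outer mitochondrial membrane did not pass either test, and they did not share a sign. Bnip3, a target of hypoxia signalling, was at 318, 288 and 250.1 CPM in siNC 1 to 3 and at 253, 293 and 206 CPM in siPkm2 1 to 3, with a fitted log2 change of -0.19 (SE 0.19, adjusted p = 0.671 by edgeR, and 0.219 with the block). Its within-pair log2 differences were -0.33, 0.03 and -0.28, and the groups overlapped.

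Bnip3l, its close relative, was at 183, 188 and 171 CPM in siNC 1 to 3 and at 229, 216 and 188 CPM in siPkm2 1 to 3. The lowest siPkm2 library stood only just above the highest siNC library, and the log2 fold change was 0.22 (SE 0.14, adjusted p = 0.473 by edgeR, and 0.113 with the block). In TPM there was no such difference, with means of 147 ± 9.92 in siNC and 147 ± 4.91 in siPkm2 (SD, n = 3). The deposited TPM per CPM of Bnip3l was 0.865 times as high in siPkm2 as in siNC, below the fifth percentile of 0.887 over 10043 genes, so the fitted value of this gene depends on the unit. TPM is divided by an effective length, and which transcripts of Bnip3l contributed was not analysed here.

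Fundc1, a receptor known from hypoxia-induced mitophagy, was at 40.2, 21.2 and 34.4 CPM in siNC 1 to 3 and at 27.2, 19.5 and 25.5 CPM in siPkm2 1 to 3. Each siPkm2 library was below the siNC library of its number, while siNC 2 lay below siPkm2 1 and 3. On the log2 scale the fitted change was -0.41 (SE 0.27, adjusted p = 0.488 by edgeR), and -0.37 (SE 0.12, adjusted p = 0.0739 by edgeR) with the block. Without pair 2 the blocked value of Fundc1 was -0.51 (adjusted p = 0.00823 by edgeR), that of Bnip3 -0.31 (adjusted p = 0.0256 by edgeR) and that of Gabarapl1 0.32 (adjusted p = 0.0443 by edgeR), so that 7 of the 10 passed there, beside 39.1% of all genes tested. Without pair 1 or without pair 3, on the other hand, 0 of the 10 passed the blocked test by edgeR, and 0% of all genes did. At an unadjusted p under 0.05, 4 and 3 of the 10 stood there, beside 25.0% and 23.1% of all genes.

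Bnip3 lies on chromosome 7 from 138890836 to 138909519, Bnip3l on chromosome 14 from 66985239 to 67008877 and Fundc1 on chromosome X from 17556564 to 17572325, all on the minus strand. Pink1 lies on chromosome 4 from 138313409 to 138326307, minus strand, Map1lc3a on chromosome 2 from 155276297 to 155278073 and Gabarapl1 on chromosome 6 from 129533160 to 129542346, both on the plus strand.

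The ratio of Bnip3 to Bnip3l in TPM was 2.95 ± 0.362 in siNC against 2.49 ± 0.352 in siPkm2 (SD, n = 3 each). The groups overlapped, and the log2 difference of -0.25 gave p = 0.3 in the exact two-sided permutation test. On CPM the log2 difference was -0.42 without overlap, at the exact permutation p of 0.1.

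Pink1, the sensor kinase of damaged mitochondria, was at 83.1, 60.6 and 107 CPM in siNC 1 to 3 and at 76.1, 61.9 and 105 CPM in siPkm2 1 to 3. The libraries of a number were close together and the numbers far apart, so that the groups overlapped almost entirely. Its fitted log2 change was -0.04 (SE 0.28, adjusted p = 0.956 by edgeR), and -0.04 (SE 0.08, adjusted p = 0.731 by edgeR) with the block.

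**Figure D2:**
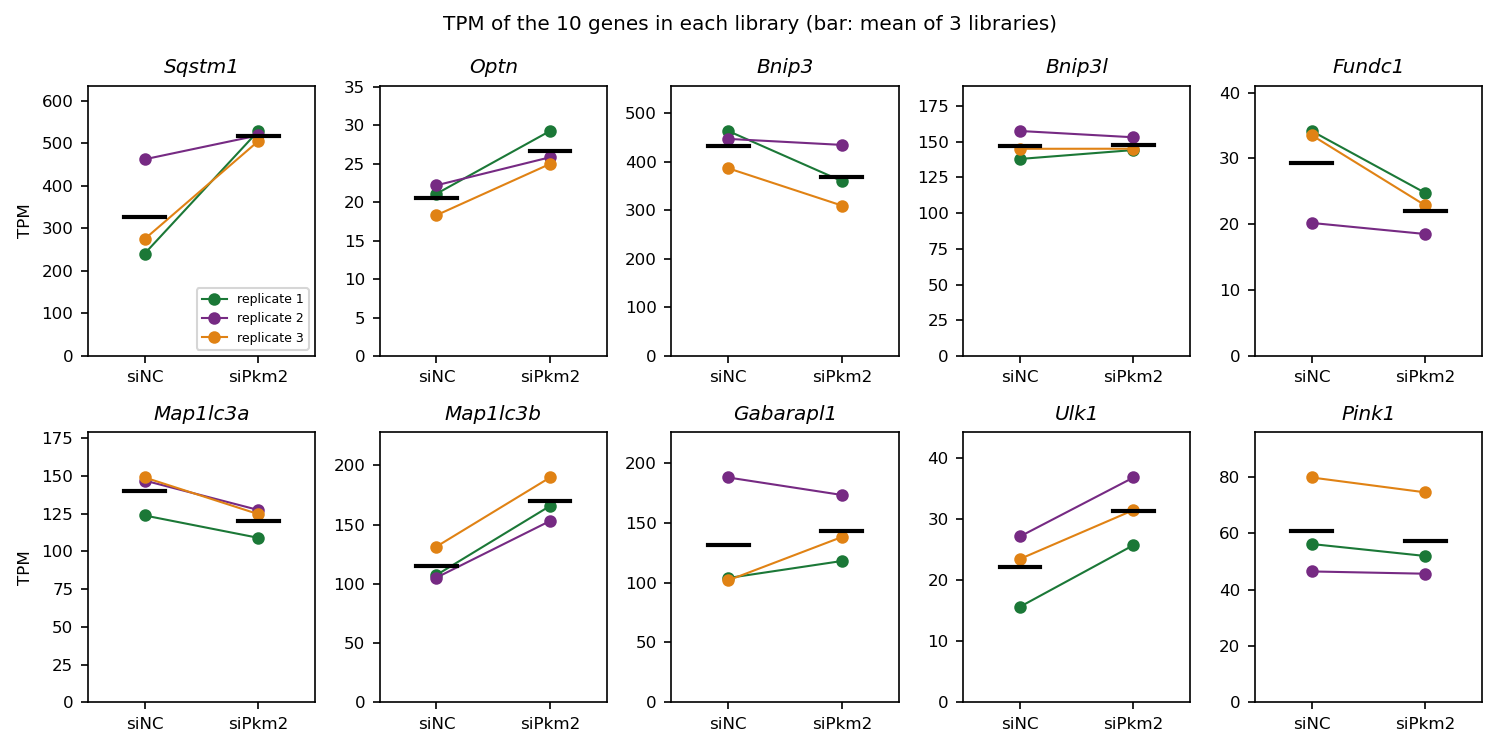
TPM of each of the 10 genes (vertical axes from 0, a scale of their own for each gene) in siNC and siPkm2, with libraries of the same replicate number joined and black bars at the mean of 3 libraries. All 3 lines rise for Sqstm1, Optn, Map1lc3b and Ulk1, all 3 go down for Map1lc3a, Fundc1, Bnip3 and Pink1, and the siPkm2 libraries of Sqstm1 sit between 505 and 529. In CPM, Bnip3 and Pink1 were instead slightly higher in siPkm2 within pair 2, each by 0.03 on the log2 scale.

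Across the 10 genes the median log2 fold change was 0.21 without the block and 0.22 with it, beside -0.02 and -0.01 over all genes tested, and 6 of the 10 were positive. Without siNC replicate 2 the median without the block was 0.33. The median of the 10 within-pair log2 differences in CPM was 0.25, 0.12 and 0.31 in pairs 1, 2 and 3. In CPM, 5 genes did not overlap between groups with siPkm2 higher (Sqstm1, Optn, Map1lc3b, Ulk1 and Bnip3l) and 1 with siPkm2 lower (Map1lc3a), against 12.0% and 12.3% of all genes tested. None of the 10 combined an adjusted p under 0.05 with a fold over 2 in edgeR's quasi-likelihood test, with the block or without it, where 5.83% of all genes tested did with the block. At an unadjusted p under 0.05, 6 of the 10 stood in the blocked test, beside 40.6% of all genes tested.

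**Figure D3:**
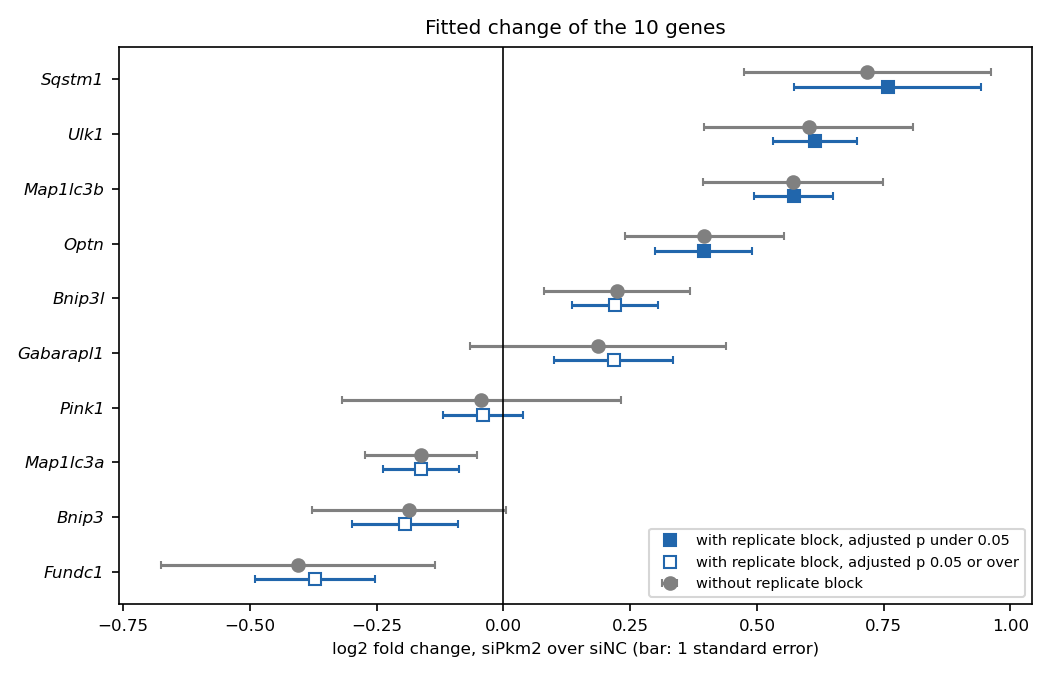
Log2 fold change of the 10 genes (siPkm2 over siNC, horizontal axis, bars of 1 standard error) in edgeR's quasi-likelihood test without the replicate block (grey circles) and with it (blue squares, filled at an adjusted p under 0.05). The estimates are nearly the same in both fits, the error bars are shorter with the block, and the 4 filled squares lie between 0.39 and 0.76.

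Levels between genes can be set side by side only per length, in TPM. In siNC, Bnip3 was the most abundant of the 10 at 432 ± 40.5 TPM (SD, n = 3), followed by Sqstm1 at 326 ± 119 TPM (SD, n = 3). These ranges overlapped, with Sqstm1 above Bnip3 in replicate 2. Bnip3l (147 TPM), Map1lc3a (139.9 TPM), Gabarapl1 (131 TPM) and Map1lc3b (115 TPM) followed with ranges that overlapped from each to the next. Pink1 stood clear of its neighbours at 60.9 ± 17.2 TPM (SD, n = 3), and Fundc1 (29.3 TPM), Ulk1 (22.1 TPM) and Optn (20.5 TPM) came last with overlapping ranges.

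In siPkm2, Sqstm1 was first at 517 ± 11.9 TPM (SD, n = 3) and its range lay above that of Bnip3 at 368 ± 62.8 TPM (SD, n = 3). Map1lc3b moved from the sixth place to the third at 169 ± 18.6 TPM (SD, n = 3), above Bnip3l, Gabarapl1 (143 TPM) and Map1lc3a (120.4 TPM). Its range overlapped those of Bnip3l and Gabarapl1, and both were above it in replicate 2, Bnip3l only just (153.09 against 153.04 TPM). Fundc1 became the lowest at 22.05 ± 3.20 TPM (SD, n = 3), below every library of Optn. The estimated counts of Sqstm1, Bnip3, Ulk1 and Map1lc3b were fractional in all 6 libraries, as can arise where reads are divided between features with like sequence, so these levels carry that uncertainty.

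The other genes of the pathway gave the wider picture. In 6 lists of 92 further autophagy genes, all with enough counts, 0 passed edgeR's quasi-likelihood test without the block (21 at an unadjusted p under 0.05, beside 17.6% of all genes, and 9 past an adjusted p of 0.05 in DESeq2's Wald test, beside 5.12%). With the block 24 rose and 6 fell, beside 12.3% and 10.8% of all genes tested. The median log2 fold change was 0.21, beside -0.01 over all genes tested. Of the 92, 41 passed the blocked edgeR test without pair 2, where 39.1% of all genes did, and 0 without pair 1 or without pair 3, where 0% of all genes did. Values in the next 3 paragraphs are from the edgeR test with the block. The counts of each list there are to be set beside the same shares of all genes tested.

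Of 16 other cargo and mitophagy receptors, 3 rose and 0 fell, beside 12.3% and 10.8% of all genes tested. The median of this list was 0.01. Tollip, a ubiquitin-binding adaptor, went from 79.5 ± 5.38 to 157 ± 16.2 CPM (SD, n = 3), a log2 fold change of 0.97 (adjusted p = 0.0124 by edgeR), above that of any of the 10 genes. Phb2, a receptor of the inner mitochondrial membrane, rose by 0.34 on the log2 scale and Tax1bp1, a relative of Optn in function, by 0.29. Of 13 genes of the ubiquitin arm and of receptor turnover, 4 rose and 1 fell. Pptc7, a mitochondrial phosphatase that restrains Bnip3 and Bnip3l, went from 29.3 ± 1.44 to 48.3 ± 3.14 CPM (SD, n = 3), a log2 fold change of 0.72 (adjusted p = 0.0141 by edgeR). Pgam5, the phosphatase that acts on Fundc1, rose by 0.68 on the log2 scale, the outer-membrane ubiquitin ligase Mul1 by 0.43, and Tbk1, the kinase that phosphorylates Optn and Sqstm1, by 0.47. Usp15, a deubiquitinase, fell by 0.50 on the log2 scale.

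Of 13 further genes of the ATG8 family and its conjugation, 4 rose and 0 fell, beside 12.3% and 10.8% of all genes tested. Gabarapl2, an ATG8 gene of the same branch as Gabarapl1, went from 39.1 ± 0.871 to 65.9 ± 7.99 CPM (SD, n = 3), a log2 fold change of 0.75 (adjusted p = 0.0131 by edgeR). Atg7, the enzyme that activates ATG8 proteins, rose by 0.59 on the log2 scale, and Atg12 and Atg5, whose products are joined into a conjugate that directs ATG8 to the membrane, by 0.68 and 0.43. Of 22 genes of initiation, nucleation and lipid transfer, 6 rose and 3 fell. The largest rises among those named were of Nrbf2 and Uvrag, subunits of the lipid kinase complexes built on Becn1, at 0.99 and 0.78 on the log2 scale, and Becn1 itself rose by 0.56. Atg13, a partner of Ulk1, rose by 0.41, whereas Ulk2, the paralog of Ulk1, fell by 0.61 from 66.4 ± 17.8 to 43.2 ± 10.3 CPM (SD, n = 3; adjusted p = 0.0133 by edgeR). The other genes that fell were Zfyve1 and Wdr45b, named here after their values were seen.

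Of 10 genes of fusion with the lysosome, 5 rose and 0 fell, beside 12.3% and 10.8% of all genes tested. This list had the highest median of the 6 lists at 0.29. The 5 that rose included the SNARE proteins Snap29, Ykt6 and Vamp8, at 0.69, 0.39 and 0.36 on the log2 scale. The others were Plekhm1 and Rab7, an adaptor and the GTPase it binds, at 0.46 and 0.38. Of 18 genes of mTORC1, AMPK and transcriptional control, 2 rose and 2 fell, close to the shares of all genes tested. Prkaa1, a catalytic subunit of AMPK, went from 34.4 ± 5.47 to 66.8 ± 6.28 CPM (SD, n = 3), a log2 fold change of 0.97 (adjusted p = 0.0147 by edgeR). The sestrins, stress-induced inhibitors of mTORC1, were split, as Sesn2 rose by 0.45 on the log2 scale while Sesn3 fell by 0.65 and Sesn1 fell by 0.65.

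**Figure D4:**
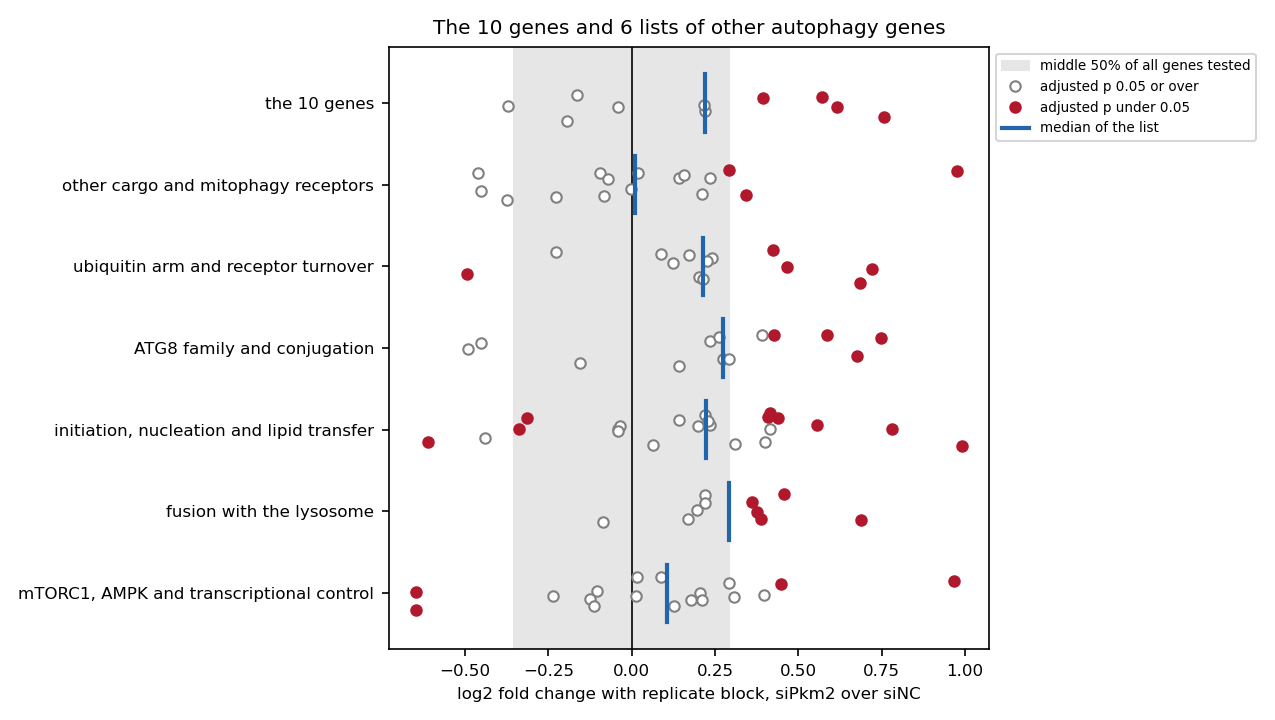
Log2 fold change with the replicate block (siPkm2 over siNC, horizontal axis) of the 10 genes and of each gene in 6 lists of other autophagy genes, filled red at an adjusted p under 0.05, with a blue line at each list's median and grey shading over the middle 50% of all genes tested (vertical scatter within a row has no meaning). Filled points lie mostly to the right, 24 against 6 in the 6 lists, where 12.3% of all genes tested rose and 10.8% fell. No filled or open point of these lists reaches 1.

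The tested genes whose log2(CPM + 1) followed a member most closely over the 6 libraries were sought for the 4 genes that rose. These 6 points comprise 2 groups and 3 shared replicate numbers and were searched over 15269 genes, so high values are easily reached, and they serve as a description. For Ulk1 they were Usp2, Med20 and Urgcp (r of 0.998, 0.996 and 0.996), and for Map1lc3b they were Vps33a, Bfar and Terf2ip (0.998, 0.997 and 0.995). For Sqstm1 they were Serpine2, Wdr37 and Gm10425 (0.998, 0.997 and 0.996), and for Optn they were Psmd14, Heatr1 and Cnbp (0.999, 0.998 and 0.996). No gene was shared between these 4 sets.

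An siRNA strand can also act on other transcripts through its seed, bases 2 to 8, so seed sites were sought in the longest 3′ UTR of each gene. Number 3 of the Pkm2 siRNAs was the one chosen by the study, per its supplement, but the sources used here do not say which number the sequenced cultures received. Its strands and the antisense strand of the scrambled siNC are shown with the seed in capitals, 5′ to 3′, followed by their sites in the genes that rose with the block, with the 7 bases that pair with the seed in capitals.
siPkm2 #3 antisense: uGUUUCUCcagacagcaugtt
siPkm2 #3 sense: cAUGCUGUcuggagaaacatt
siNC antisense: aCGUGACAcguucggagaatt
Sqstm1 site for the siPkm2 #3 antisense strand: ccaggtgccagGAGAAACcgtgcccattt
Ulk1 site for the siNC antisense strand: tgccagtccttTGTCACGgctctgttcat
Map1lc3b site for the siPkm2 #3 sense strand: agacctcgggcACAGCATggggttcaagg
The antisense site GAGAAAC occurred in the 3′ UTR of 16.4% of 13202 tested genes and, of the 10, only in Sqstm1, at bases 1102 to 1108 of the 1424 bases in transcript Sqstm1-201. Sqstm1 rose with the block. The sense site ACAGCAT occurred in 12.9% of these genes and, of the 10, in Map1lc3b once, at bases 1925 to 1931 of 2002, and in Bnip3l at 2 places. The siNC antisense site TGTCACG occurred in 3.08% of these genes and, of the 10, only in Ulk1, at bases 1202 to 1208 of the 1684 bases in transcript Ulk1-201, and the siNC sense seed had no site in the 10. A match of letters is a description and not a shown site of action.

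Promoter windows of 250 bases before to 50 after the start, from RefSeq on GRCm38.p6, were given for 8 of the 10 genes, not for Bnip3l and Map1lc3a. They were searched on both strands for CACGTG, the letters of the E-box that TFEB-type factors bind, and for ACGTG and GCGTG, the core letters of hypoxia response elements; ACGTG lies within CACGTG. The windows of Map1lc3b and Sqstm1, which rose with the block, and of Bnip3, which did not pass, are shown 5′ to 3′ on the gene's strand with any of these letters, or their reverse complement, in capitals.
Map1lc3b, chr8:121590188-121590487, plus strand: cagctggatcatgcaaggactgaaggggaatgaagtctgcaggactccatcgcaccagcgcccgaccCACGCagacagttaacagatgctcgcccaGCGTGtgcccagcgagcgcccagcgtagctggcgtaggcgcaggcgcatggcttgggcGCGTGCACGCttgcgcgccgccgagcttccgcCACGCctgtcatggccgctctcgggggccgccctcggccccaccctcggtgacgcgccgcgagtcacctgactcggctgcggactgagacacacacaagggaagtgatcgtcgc
Sqstm1, chr11:50210771-50211070, minus strand: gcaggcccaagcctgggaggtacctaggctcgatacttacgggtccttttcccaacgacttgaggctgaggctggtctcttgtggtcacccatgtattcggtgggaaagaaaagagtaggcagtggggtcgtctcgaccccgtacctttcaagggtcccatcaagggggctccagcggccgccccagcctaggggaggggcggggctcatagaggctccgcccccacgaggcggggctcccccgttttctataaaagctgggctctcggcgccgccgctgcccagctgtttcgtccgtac
Bnip3, chr7:138909457-138909756, minus strand: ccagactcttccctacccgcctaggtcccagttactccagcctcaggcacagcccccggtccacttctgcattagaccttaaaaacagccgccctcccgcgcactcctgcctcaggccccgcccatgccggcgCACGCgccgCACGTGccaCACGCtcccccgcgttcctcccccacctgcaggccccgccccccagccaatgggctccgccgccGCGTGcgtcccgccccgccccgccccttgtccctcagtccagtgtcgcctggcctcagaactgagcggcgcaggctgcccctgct
Of the 8 windows only that of Bnip3 held CACGTG, 108 bases before the start, where 7.15% of 32851 windows did, and it alone held ACGTG (19.6% of windows). GCGTG stood in the windows of Optn, Pink1, Ulk1, Bnip3 and Map1lc3b, 5 of 8, beside 32.4% of all windows, with 5 places in Map1lc3b and 3 in Optn. The windows of Sqstm1, Gabarapl1 and Fundc1 held none of the 3. The Fundc1 window, from 17571958 to 17572257 on chromosome X, lies wholly inside the gene as placed above. The bases before the start of Fundc1 at 17572325 were thus not searched. The Optn window, from 5064068 to 5064367 on chromosome 2, lies wholly upstream of the gene as placed above, and so do its GCGTG places. Of the genes that rose with the block, Optn, Ulk1 and Map1lc3b held GCGTG and Sqstm1 did not. Among the others with a window, Pink1 and Bnip3 held it and Gabarapl1 and Fundc1 did not. So few windows cannot show whether these letters go with the rise, and this was not tested.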

How the data were processed

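RNA-seq of 3 siNC and 3 siPkm2 libraries was analysed. The authors deposited estimated counts per gene, not normalized and partly fractional, and TPM values per library. The submitters' processing notes name edgeR and mm9, and the aligner, counter and annotation are not given in the sources used here. The table's columns of group-mean TPM and of the authors' own comparison (fold, log2 fold, p, adjusted p, calls) were not used. Estimated counts were rounded and tested in R 4.3.3 with edgeR 4.0.16 (filterByExpr, TMM factors, glmQLFit and glmQLFTest, Benjamini-Hochberg adjustment over 15269 genes), without a block and with one for the replicate number. The numbers came from the titles and were taken to pair libraries, since deviations of the same number correlated at 0.66, 0.76 and 0.65. Those of unlike numbers correlated at 0.158 or below. Deviations from a group mean cancel within the group, so these low values are partly forced and are no separate support. Standard errors are the log2 fold change over the root of F. The call rule of the supplementary methods is a fold over 2 and an adjusted p under 0.05, and "rose" and "fell" need the p alone. No 2 libraries of a group were duplicates, as at least 53.6% of genes differed beyond sampling noise. The alternatives tried were upper-quartile and RLE factors, DESeq2 1.42.0, limma 3.58.1 on log2 TPM, other filters, and libraries or pairs left out. The scripts were tested on simulated data.

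The 10 genes and all lists were chosen with earlier results of these data known. All 10 were named, and of each of the 6 lists at most 5 genes past an adjusted p of 0.05, by the smallest p with the block. Like genes were named for 4 genes. Identifiers were joined to GENCODE M21 (GRCm38), in which 94.0% occurred, and no coordinate was converted from the build in the notes. siRNA sequences came from the supplement. Protein sequences were not used here.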

Additional observations from a re-analysis of the deposited data

How the results depend on the processing

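With the replicate block, 4 of the 10 genes and 30 of 92 further genes passed an adjusted p of 0.05, against 0 and 0 without it (edgeR's quasi-likelihood test; 4 and 21 at an unadjusted p under 0.05, beside 17.6% of all genes), and 23.1% of all genes passed with the block. The log2 fold change of Pkm passed the threshold with the block (-2.53), in DESeq2's Wald test (-2.50) and with the block and without pair 2 (-2.63), and ranged from -2.80 to -2.34 as single libraries were dropped, past the threshold without siNC replicate 2 (-2.34). DESeq2 put 0 of the 10 and 9 of the 92 past the threshold. With the block and without pair 2, 7 of the 10 and 41 of the 92 passed, beside 39.1% of all genes tested, and 1 of the 10, Sqstm1, was also past a fold of 2, whereas without pair 1 or pair 3 the counts were 0 of the 10 (4 and 3 at an unadjusted p under 0.05, beside 25.0% and 23.1% of all genes) and 0 of the 92. With each library left out and no block, 0 of the 10 passed (0 to 5 at an unadjusted p under 0.05, beside 10.5% to 23.4% of all genes) and 0 to 1 of the 92, and the median of the 10 lay between 0.17 and 0.33, the highest without siNC replicate 2. The direction of Pink1 turned with the block and without pair 1 (0.0032), without siNC replicate 3 (0.18) and without siPkm2 replicate 2 (0.12), and its values with a library left out lay between -0.27 and 0.18. These were the only turns of direction among the named genes and ratios under the alternatives run. RLE and upper-quartile factors, both other filters and limma on TPM left the counts of the 10 and of the 92 at 0, and no member or ratio turned under another scaling. The cause of these differences was not tested. The lowest estimated count of the 10 genes was 502, and 3 libraries per group allow no exact permutation p below 0.1.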
